A study of Mus musculus with 23 samples.

Results

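The 40 genes described here drive DNA replication and mitosis, and they were followed in osteocyte-enriched bone from 23 mice. They were a listed set of replication and mitosis genes, and all 40 were found by symbol among the 21402 genes of the normalized count table. Each mouse gave 1 total RNA library. It was made from chips of flushed tibia and femur diaphyses whose surface cells had been removed with enzymes. The mice were C57BL/6 by their labels and C57BL/6J by the study, 5 months old, and either WT or homozygous for a global deletion of FNDC5, the precursor of the muscle-derived hormone irisin (FNDC5 KO). Females (F) and males (M) of each genotype ate a control diet (C) with 0.6% calcium or a low-calcium diet (LC) with 0.01% calcium for 2 weeks. There were 8 groups, with 2 mice in that of low-calcium KO females and 3 in each other group. The deletion is not limited to bone or muscle, and each value is that of all cells left in the chips.

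In a dividing cell, the MCM proteins are loaded onto DNA by CDC6 as replication licences, and they unwind it in S phase together with CDC45 and the GINS complex. The sliding clamp PCNA holds the polymerases on the template, while ribonucleotide reductase (RRM1 and RRM2) and thymidylate synthase (TYMS) supply the building blocks. Cyclins with CDK1 then start mitosis, the Aurora and Polo kinases and the BUB and TTK checkpoint proteins control chromosome attachment, and CDC20 with UBE2C targets mitotic proteins for destruction. Osteocytes are non-dividing cells buried in mineral, whereas the red and white cell precursors of marrow divide rapidly.

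By role, the list held 3 regulators of G1 and S phase (E2f1, Ccne1 and Ccne2) and 10 genes of replication licensing and the fork (Mcm2, Mcm3, Mcm4, Mcm5, Mcm6, Mcm7, Cdc6, Cdc45, Gins2 and Pcna). Nucleotide supply was covered by Rrm1, Rrm2 and Tyms, and entry into mitosis by Ccna2, Ccnb1, Ccnb2 and Cdk1. The 6 mitotic kinase and checkpoint genes were Plk1, Aurka, Aurkb, Bub1, Bub1b and Ttk. Birc5 and Cdca8 belong to the chromosomal passenger complex, and Cdc20 and Ube2c to the machinery of the anaphase-promoting complex. The 8 spindle, kinetochore and cytokinesis genes were Kif11, Kif20a, Kif23, Tpx2, Nusap1, Prc1, Cenpe and Cenpf. Mki67 and Top2a completed the list as common markers of cycling cells.

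The libraries held 7217601 to 33352631 reads assigned to genes, with a median of 20907756. Those of WT females on the low-calcium diet, the shallowest library among them, held 7217601 to 18606399, and the study's methods name the 3 mice of that group (mice 16, 17 and 18) for low mapping. The study names bacterial contamination as a possible reason, and states that unfiltered bacterial reads may raise the level of some genes. Its part in the values given here was not tested. Fndc5 itself was near the detection limit, at 0 to 17.8 normalized counts in 12 WT and 0 to 12.4 in 11 KO libraries, so its level did not check the genotype labels. Bone markers and blood cell markers were both measured in all libraries. The summed level of 11 osteocyte genes such as Dmp1, Sost and Phex ranged from 9040.3 to 73967 normalized counts, and that of 12 erythroid genes such as Slc4a1 and Alas2, of which 11 passed the filter on low values, from 85806 to 204552. Those of 11 mature neutrophil genes, Ngp, S100a8 and Ltf among them, summed to 229063 to 592818. No tested gene of these 3 lists was at 0 in any mouse.

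All 40 cell division genes passed the filter on low values (at least 10 normalized counts in at least 2 libraries), as did 15638 genes in all. A normalized count is a read count divided by the library's size factor, which puts the libraries on 1 scale. Divided by exon length, the level of the 40 genes had a median of 596 normalized counts per kb, against 96.9 for the 15045 tested genes with an annotated length, and 39 of the 40 were above that value. Mki67, whose protein coats the chromosomes of dividing cells, was the highest at 7277 per kb, and Rrm2 followed at 2474. Next came Ccnb2, the gene of cyclin B2, at 2122 per kb and Ube2c at 1826. E2f1, a transcription factor that switches on S phase genes, stood near the low end at 229.7 per kb, above the checkpoint kinase gene Ttk at 216. The lowest was Gins2, a subunit of the replicative helicase, at 42.7 per kb. The 40 genes together took 0.683% to 1.31% of all normalized counts of a library, and Mki67 alone 0.249% to 0.457%.

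The members varied together from mouse to mouse. Over the 23 mice, the 780 pairs of members had correlations of log2 level between 0.34 and 0.98 with a median of 0.86, a description of values that share their libraries and size factors. Gins2, with 109 to 239 normalized counts, went least with the others, at a mean r of 0.67. Mouse 29, a KO male on the low-calcium diet, had the highest value of the 23 for 39 members. Mouse 18, a WT female on the same diet, had the lowest value for 33. Averaged over the 40 genes, log2(normalized count + 1) ran from 10.99 to 11.53 in the 11 females and from 11.49 to 11.95 in the 12 males.

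RefSeq promoter sequences (GRCm38.p6, 250 bases before to 50 after the start) matched 33 of the 40 genes by symbol. The others were Gins2, Kif20a, Mcm4, Ccna2, Tpx2, Ccne2 and Aurkb. The windows were searched on both strands for 3 short motifs known from cell cycle promoters. The cell cycle homology region (CHR; TTTGAA or TTCGAA) was in 19 of the 33 (57.6%), against 19.4% of all 27025 promoters of the table. The CCAAT box (CCAAT) was in 27 (81.8%), against 37.9%, and an E2F word (TTTCCCGC, TTTCGCGC, TTTGCCGC or TTTGGCGC) in 6 (18.2%), against 2.32%. By role, all 5 matched kinase and checkpoint genes held a CHR, and 5 of the 6 genes with an E2F word were replication genes (Mcm3, Mcm5, Mcm6, Mcm7 and Cdc6), the other being Cdk1. E2F words can overlap each other, as they do in Mcm5 below. A match is a run of letters, and no binding was measured. Shown here are Plk1, the gene with the largest average sex difference, Cdk1 with all 3 motifs, the most abundant member Mki67, and Mcm5 as a replication gene. Capitals mark the motif words.
Plk1 (chr7:122159185-122159484, plus strand): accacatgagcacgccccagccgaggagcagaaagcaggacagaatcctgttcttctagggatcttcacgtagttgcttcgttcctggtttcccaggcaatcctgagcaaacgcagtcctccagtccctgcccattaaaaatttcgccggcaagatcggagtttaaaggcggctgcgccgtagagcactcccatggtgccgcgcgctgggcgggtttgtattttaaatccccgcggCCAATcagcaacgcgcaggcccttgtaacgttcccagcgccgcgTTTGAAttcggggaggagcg
Cdk1 (chr10:69352863-69353162, minus strand): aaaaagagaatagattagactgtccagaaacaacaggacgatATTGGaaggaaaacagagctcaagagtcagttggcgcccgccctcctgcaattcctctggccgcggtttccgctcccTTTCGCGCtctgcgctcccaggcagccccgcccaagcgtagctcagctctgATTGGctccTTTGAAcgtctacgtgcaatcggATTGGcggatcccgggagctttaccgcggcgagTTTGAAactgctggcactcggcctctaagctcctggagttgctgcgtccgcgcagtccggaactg
Mki67 (chr7:135716330-135716629, minus strand): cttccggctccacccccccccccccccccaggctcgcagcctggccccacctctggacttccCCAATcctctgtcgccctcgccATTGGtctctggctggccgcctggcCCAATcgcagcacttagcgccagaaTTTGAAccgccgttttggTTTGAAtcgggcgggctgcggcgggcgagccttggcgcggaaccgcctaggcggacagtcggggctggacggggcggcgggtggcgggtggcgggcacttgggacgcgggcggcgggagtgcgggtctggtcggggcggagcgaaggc
Mcm5 (chr8:75109259-75109558, plus strand): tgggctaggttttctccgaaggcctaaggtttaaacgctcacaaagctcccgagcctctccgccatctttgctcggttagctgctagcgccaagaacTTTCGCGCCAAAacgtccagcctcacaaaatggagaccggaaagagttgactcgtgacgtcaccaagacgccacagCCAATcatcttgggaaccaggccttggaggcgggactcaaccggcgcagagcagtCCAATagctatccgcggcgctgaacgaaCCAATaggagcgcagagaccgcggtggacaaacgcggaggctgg
Read against these letters, Plk1 had 1 CHR and 1 CCAAT box and Mki67 had 2 and 3. Mcm5 had 3 CCAAT boxes, no CHR and 2 overlapping E2F words.

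Most calls among the 40 genes were between the sexes. Averaged over the 4 strata of genotype and diet, 39 of the 40 were lower in females than in males and none was higher. The test was limma on log2(normalized count + 1) with all 23 mice and Benjamini-Hochberg adjustment over 15638 genes, and a gene was called at an adjusted p under 0.05. Of all genes tested, 40.1% were called and 20% were called lower. The 40 had a median log2 difference of -0.30, against -0.00066 for all genes, and a range from -0.44 to -0.18. The exception was Gins2, at -0.22 ± 0.10 (SE; adjusted p = 0.0928). In bulk RNA of this kind, fewer dividing cells and less of this RNA per cell cannot be told apart.

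The kinase gene Plk1, which acts at entry into mitosis and at the spindle poles, had the largest average difference, -0.44 ± 0.060 on the log2 scale (SE; adjusted p = 3.7e-05). Aurka, which builds the spindle poles, followed at -0.41 ± 0.060. The replication genes Cdc45 (-0.33 ± 0.044, adjusted p = 3.1e-05) and Mcm4 (-0.35 ± 0.048, adjusted p = 3.3e-05) had the smallest p-values. The kinetochore genes Cenpf (-0.18 ± 0.059) and Cenpe (-0.18 ± 0.053) had the smallest differences among those called. Every role held called genes. The medians were -0.37 for the 3 G1 and S phase regulators and -0.29 for the 10 replication genes, of which 9 were called. They were -0.29 for the 3 nucleotide supply genes and -0.31 for the 4 genes of mitotic cyclins and Cdk1. The 6 kinase and checkpoint genes had a median of -0.29, and the 8 spindle genes one of -0.28.

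The largest share of calls in a single stratum was in WT mice on the low-calcium diet, where all 40 were lower in females. Of all genes tested in that stratum, 31.9% were called and 14.8% were called lower. The median of the 40 was -0.55, and all 40 had a larger difference here than in the other 3 strata. For 39 of them the female and male values did not overlap, with the females below, the exception being Gins2, as was so for 21.4% of all genes. Plk1 was at 1239.8, 1228 and 985 normalized counts in the females (mice 16, 17 and 18) and 1803, 2007 and 1899 in the males. Every male was above every female, and the log2 difference was -0.73 ± 0.12 (SE; adjusted p = 0.00051). Ccnb1, the gene of cyclin B1 that partners CDK1, was at 2082, 2450.1 and 1739.6 against 3389.5, 3451 and 3372, a difference of -0.72 ± 0.12. Mki67 was at 65479, 68185 and 55124 against 90746, 93048 and 90769. The 3 males lay within a narrow band and the females below it, for a difference of -0.55 ± 0.12 (adjusted p = 0.00225).

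Genes of S phase were lower in females in that stratum too. Mcm2, a helicase subunit, was at 2862, 3589.7 and 2809.7 in the females and 4491, 4845 and 4784 in the males, -0.62 ± 0.11 on the log2 scale. Rrm2, the regulated subunit of ribonucleotide reductase, was at 4946, 6188 and 4661 and 7871, 8655 and 8174, a difference of -0.65 ± 0.12. E2f1 was at 613, 684 and 517 and 851, 881 and 792. These values are again separate by sex, with mouse 17 the highest female and mouse 18 the lowest for all 3 genes. Cdk1 (-0.55 ± 0.13), Pcna (-0.45 ± 0.11), Mcm5 (-0.44 ± 0.090), Top2a (-0.45 ± 0.097) and Aurkb (-0.49 ± 0.11) were all called. Top2a encodes the enzyme that untangles replicated chromosomes, and Aurkb the kinase of the chromosomal passenger complex. The count stayed between 38 and 40 when any 1 mouse of the 2 groups was left out. Leaving out mice 16 and 17 together keeps only mouse 18, which had the lowest value of the 23 for 33 members. Such a fit cannot test the part of the low mapping, since mouse 18 is among the mice named for it.

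By role, the log2 differences in that stratum ran from -0.74 (Ccne2, a cyclin of S phase entry) to -0.48 (E2f1) for the G1 and S phase regulators. They ran from -0.62 (Mcm2) to -0.42 (Mcm3) for the replication genes and from -0.65 (Rrm2) to -0.55 (Tyms) for nucleotide supply. The mitotic cyclins and Cdk1 were between -0.72 and -0.55, and the kinases and checkpoint genes between -0.73 (Plk1) and -0.46 (Bub1). Ube2c, the ubiquitin-conjugating partner of the anaphase-promoting complex, had the largest difference of its group at -0.69, and Cdc20 the smallest at -0.48. Among spindle genes the range was -0.65 for the microtubule-bundling gene Nusap1 to -0.40 for Cenpe. Gins2 was at 122, 171 and 109 in females and 169, 212 and 210.2 in males, the only member whose values overlapped (adjusted p = 0.0355). In this stratum all 11 erythroid genes were lower in females too (median -0.69), and all 9 osteoblast genes were higher (median 1.08).

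In the other 3 strata the medians pointed the same way with few calls. On the control diet, limma called 0 members (6 had an unadjusted p under 0.05), edgeR 0 and DESeq2 1 between WT females and males. Of all 15638 genes, 2737 had an unadjusted p under 0.05 in limma, and DESeq2 called 704. All 40 estimates were negative, with a median of -0.17, and limma called 1.89% of all genes. Cdc45 had the smallest p there, with 927, 979 and 885 in females and 1096, 1170.4 and 1179 in males (adjusted p = 0.0709). These values did not overlap, as was so in either direction for 25.7% of all genes. In KO mice on the control diet, 2 members were lower in females, with a background of 3.91% called and 2.14% called lower. They were Cdc6 (-0.39 ± 0.10, adjusted p = 0.0445) and Mcm4 (-0.35 ± 0.092, adjusted p = 0.0406). Cdc6 was at 1724, 1982 and 1981 in KO females and 2555, 2538 and 2326 in KO males. Both calls were lost without mouse 4, 20, 10, 27 or 28, and edgeR called neither.

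In KO mice on the low-calcium diet, Plk1 and Kif20a, a kinesin of cytokinesis, were lower in females, with a background of 2.59% called and 1.5% called lower. Plk1 was at 1239 and 1231 in the 2 females and 1512, 2291 and 1768 in the males, a difference of -0.57 ± 0.13 (adjusted p = 0.0299). Kif20a was at 1920.3 and 1836 and 2183, 3004 and 2465, a difference of -0.43 ± 0.11 (adjusted p = 0.0397). The males were above the females for both genes, with mouse 29 the highest. The sexes did not overlap, in either direction, for 40.6% of all genes. No member was called without mouse 5, 6 or 29, while 6 were called without mouse 12, beside 3.63% of all genes, and 1 without mouse 31. The medians of the 40 were -0.23 in KO mice on the control diet and -0.25 on the low-calcium diet. With 1 mouse left out they ran from -0.25 to -0.19 and from -0.33 to -0.10, respectively. The averaged result thus did not come from WT mice on the low-calcium diet alone. Averaged over the 3 strata without them, 29 members were lower in females with a median of -0.22, beside 21.8% of all genes called in either direction. Over the 2 control-diet strata 8 were, with a median of -0.20, beside 11.3% of all genes called in either direction. Of the 40, 39 had a negative difference in all 4 strata, and Gins2 did not.

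**Figure D1:**
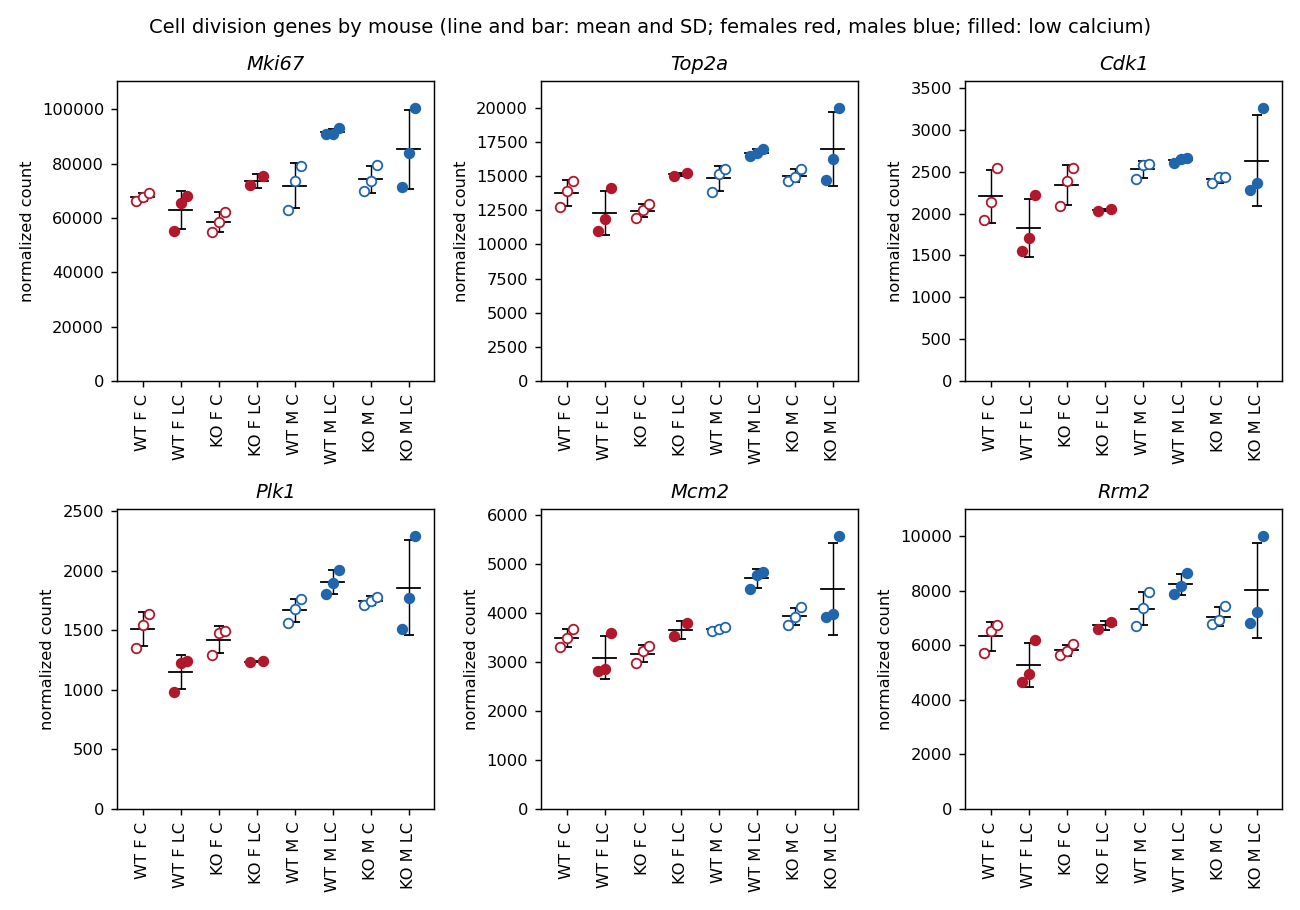
Normalized counts (vertical axis, from 0) of 6 cell division genes in each of the 23 mice, by group, with group mean and SD. For Mki67, the 3 WT males on the low-calcium diet sit at 90746 to 93048, above all 11 females.

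**Figure D2:**
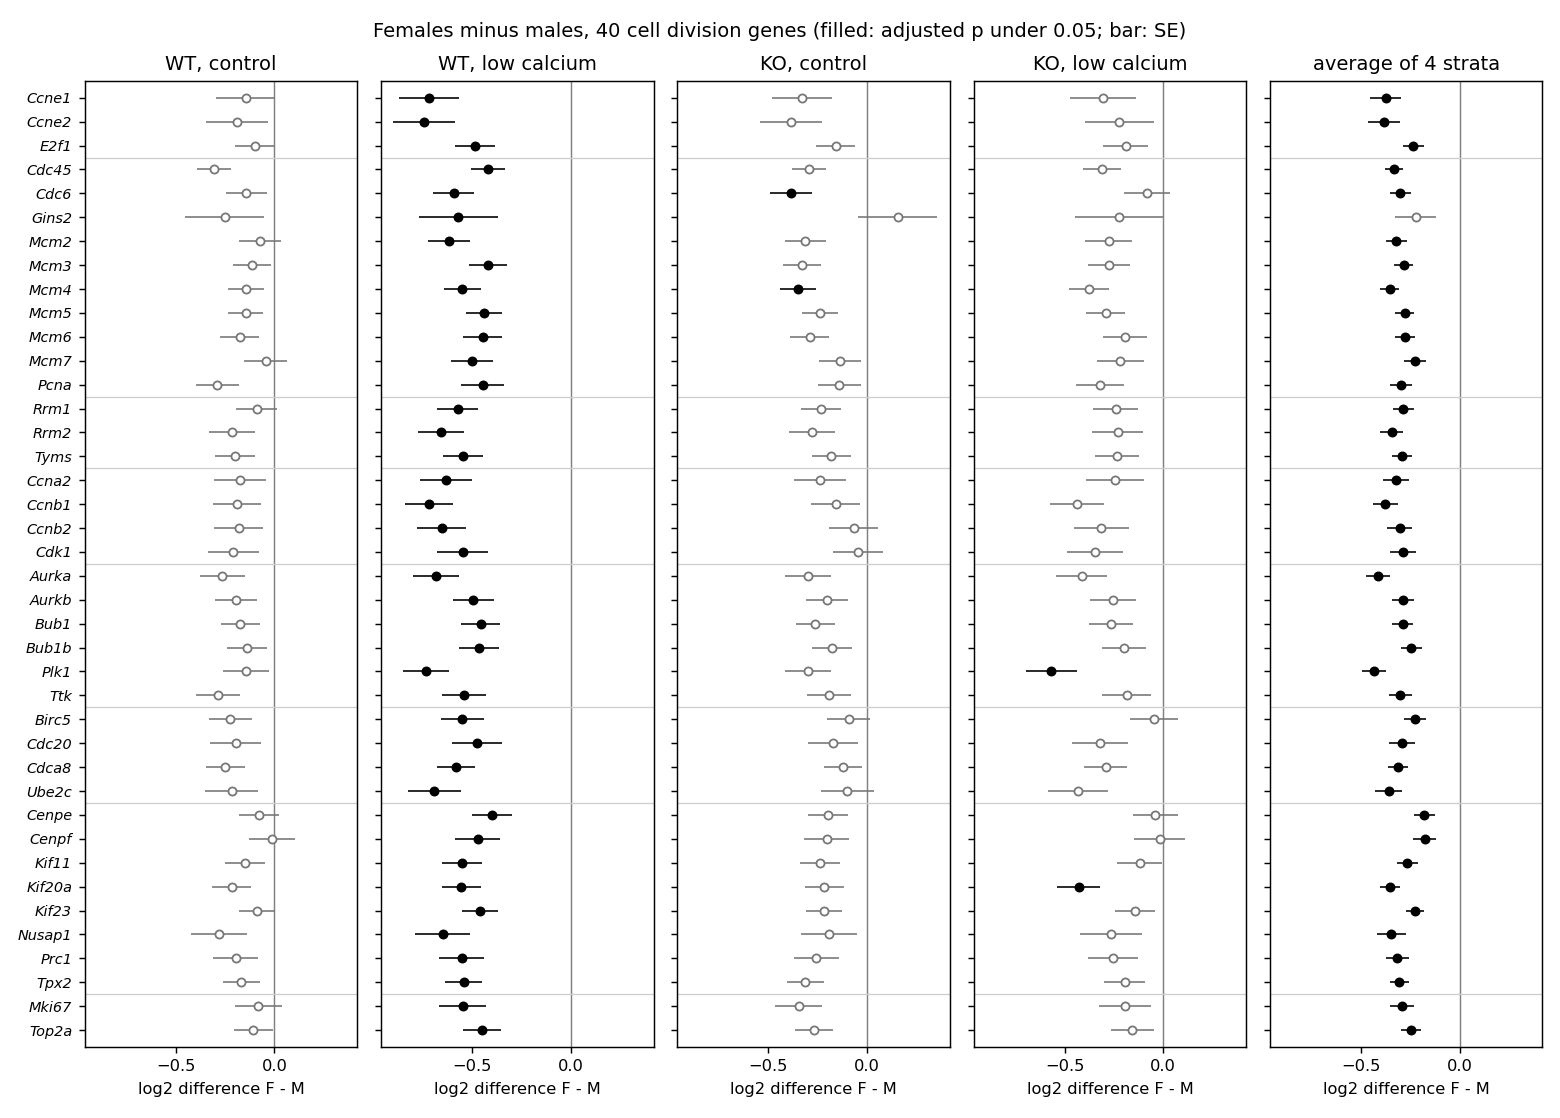
Log2 difference of females minus males with its SE (horizontal axis) for the 40 genes, grouped by role, in each stratum and on average; filled points have an adjusted p under 0.05. All 40 points are filled in WT mice on the low-calcium diet, and 39 in the average.

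Other lists moved with sex in the same averaged comparison. Lower in females were 9 of 11 erythroid genes (median -0.28), 6 of 10 granulocyte precursor genes (-0.31) and 9 of 11 mature neutrophil genes (-0.54), with none of these 3 lists higher. Higher in females were 7 of 11 osteocyte genes (0.68), all 9 osteoblast genes (0.77) and 5 of 6 endothelial genes (0.52). B lymphocyte precursor genes went both ways, with 4 higher and 1 lower of 13. The summed erythroid level had a median of 131510 normalized counts in females, from 85806 to 152158, and of 150267 in males, from 121298 to 204552. For osteocyte genes the medians were 32514 (from 23045 to 73967) and 21668 (from 9040.3 to 28057).

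Across the 23 mice, the mean log2 level of the 40 genes went with that of the erythroid list at Pearson's r = 0.89 and Spearman's rho = 0.80. Without the 2 mice farthest from the erythroid median r was 0.78, and for deviations from the group means it was 0.86. With osteocyte genes it went the other way, at r = -0.82 and rho = -0.81, -0.76 without the 2 farthest mice and -0.70 within groups. Mature neutrophil genes went with it less, at r = 0.47 and 0.16 within groups. B lymphocyte precursor genes were at r = -0.01. Granulocyte precursor genes were at r = 0.64 and 0.40 within groups. The osteocyte list was not alone in going the other way. Endothelial genes were at r = -0.74 and -0.78 within groups, osteoblast genes at -0.53 and -0.67, and skeletal muscle genes at -0.215 and -0.76. These are among 19 relations computed, and they are descriptions, because the lists share libraries and size factors.

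With the mean levels of the erythroid, granulocyte precursor and B lymphocyte precursor lists as covariates, no member was called lower in females on average, and the median of the 40 moved from -0.30 to -0.053. Calls over all genes went from 40.1% to 0.914% in that fit, so the loss was not particular to the 40 genes. In WT mice on the low-calcium diet the median moved from -0.55 to -0.055, again with no member called. With the erythroid list alone, a fit chosen after seeing the data, 25 members were lower in females on average (median -0.16) beside 21.2% of all genes. These covariates were measured in the same libraries and themselves differed by sex. The part that the makeup of the chips has in the sex difference was not tested.

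**Figure D3:**
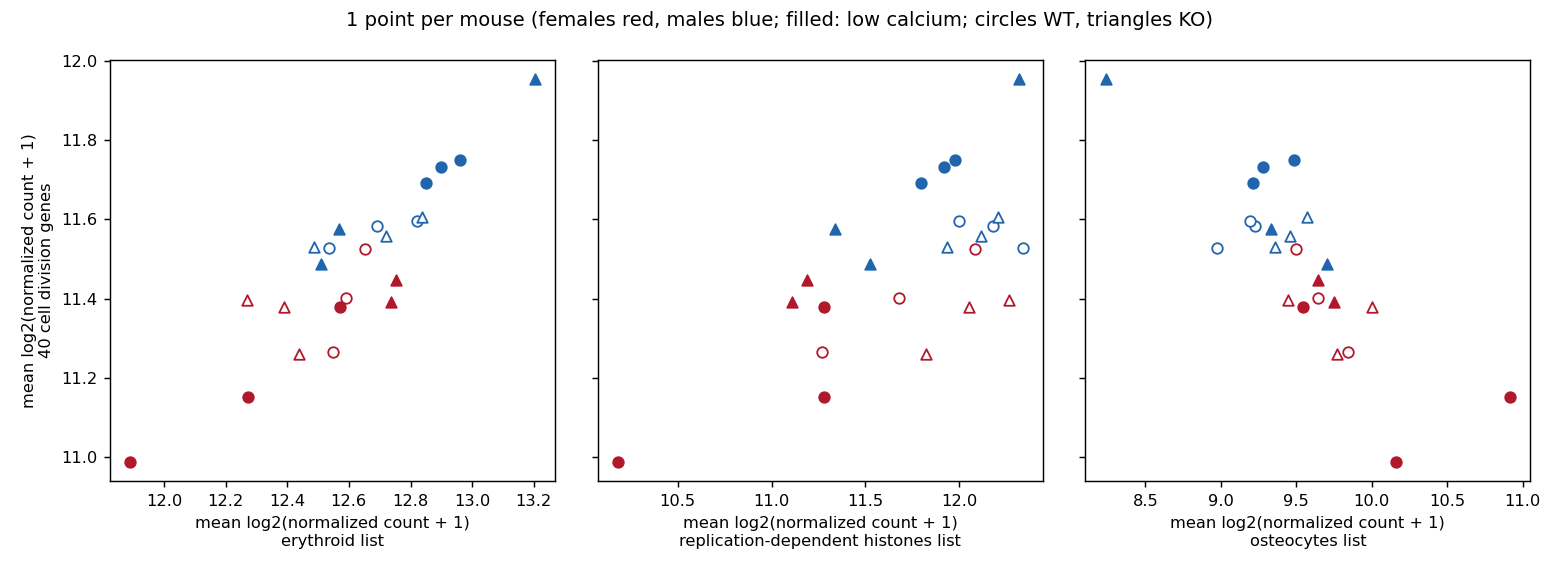
Mean log2(normalized count + 1) of the 40 cell division genes (vertical axis) against that of the erythroid, histone and osteocyte lists (horizontal axes), 1 point per mouse. Mice with more erythroid RNA have more cell division RNA (r = 0.89), and mice with more osteocyte RNA have less (r = -0.82).

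The low-calcium diet gave few calls among these genes, and the estimates did not point the same way in each group. Averaged over the 4 strata, 4 members rose and 1 fell, among 31.4% of all genes called (16% higher and 15.4% lower), so the share called was below that of all genes. The median of the 40 was 0.041. Mcm3 (0.21 ± 0.049, adjusted p = 0.00315), Cenpf (0.23 ± 0.059, adjusted p = 0.00566), Cenpe (0.17 ± 0.053, adjusted p = 0.0171) and Mki67 (0.19 ± 0.061, adjusted p = 0.0219) rose. Cdc45 fell (-0.16 ± 0.044, adjusted p = 0.00813). The count of calls moved with single mice, and 31.4% of all genes were called with all mice in. It was 11 without mouse 18 (10 higher and 1 lower), 10 without mouse 12 (9 higher and 1 lower) and 8 without mouse 31 (7 higher and 1 lower). Without mouse 29 it was 4 higher and 4 lower with a median of -0.0032, and without mice 16 and 17 it was 3 higher and 3 lower with a median of -0.0028. Mki67 was not called without mouse 5 (adjusted p = 0.0569). Over the 3 strata without WT females 13 members rose and none fell, beside 23.6% of all genes called.

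In WT females, 5 members fell on the low-calcium diet, beside 16.1% of all genes called and 6.62% called lower. The median of the 40 was -0.22, and 39 estimates were negative, the exception being Mcm3. Kif23, a kinesin of the central spindle, went from 2521, 2651 and 2244 (mice 1, 14 and 32) to 1883, 2117 and 1637 (mice 16, 17 and 18), -0.40 ± 0.092 (SE; adjusted p = 0.00645). Birc5, or survivin, of the passenger complex went from 2189, 2461 and 2045 to 1522, 2003 and 1519.6, -0.42 ± 0.11 (adjusted p = 0.0134). For both genes the highest low-calcium female lay below the lowest control female. The diets did not overlap, in either direction, for 29% of all genes. The others called were Plk1 (-0.40 ± 0.12, adjusted p = 0.0257), Aurkb (-0.33 ± 0.11, adjusted p = 0.0392) and Tyms (-0.30 ± 0.10, adjusted p = 0.0438). Tyms is named beyond the rule of 4 genes, after its values were seen. Mki67 was at 67841, 69098 and 66146 and 65479, 68185 and 55124, with overlap and an adjusted p of 0.571. The count depended on single mice. It was 25 without mouse 17, 22 without mice 16 and 17, 9 without mouse 32, 3 without mouse 16, 2 without mouse 1, and 1 without mouse 14 or mouse 18, beside 7.8% to 24% of all genes. In a fit of the 2 groups alone no member was called, and with the 3 marrow lists as covariates none was lower and 2 were higher, with a median of 0.047. In the same comparison all 9 osteoblast genes rose (median 1.41) and 1 of 11 erythroid genes fell (list median -0.34). The part of these lists in the result was not tested.

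In KO females 2 of the 40 genes rose, a share near that of all genes (7.4% called and 3.49% called higher). They were Cenpe and Cenpf. Both proteins sit at kinetochores, CENPE as a motor. Cenpe was at 3469.9, 3816 and 3700.3 on the control diet (mice 4, 19 and 20) and 4962 and 4774 on the low-calcium diet (mice 5 and 6), 0.41 ± 0.11 (SE; adjusted p = 0.0335). Cenpf was at 4159, 4540.1 and 4324 and 5917 and 5942, 0.45 ± 0.13 (adjusted p = 0.0373). Both low-calcium females were above all control females for each gene. The 2 groups did not overlap, in either direction, for 43.6% of all genes. Neither was called without mouse 4, 5 or 6. Cenpe alone was called without mouse 19, and Cenpf was not called without mouse 20 either (adjusted p = 0.0508). No member was called in a fit of the 2 groups alone, without the filter, or with the 3 marrow lists as covariates. Of the erythroid genes 2 were higher on the diet in the same comparison (median 0.40), and their part was not tested. Of the 40 estimates 26 were positive, and Cdk1 (-0.19 ± 0.14) and Pcna (-0.22 ± 0.12) were among the negative ones.

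In WT males limma called 0 members (13 had an unadjusted p under 0.05), edgeR 1 and DESeq2 4, beside 4.88% of all genes called by limma. DESeq2 called 9.16% of all genes there, and 3272 of all 15638 genes had an unadjusted p under 0.05 in limma. Of the 40 estimates 35 were positive (median 0.17). In 29 members all low-calcium males lay above all control males, as in 16.8% of all genes. Mcm2 was at 3628, 3669 and 3709 on the control diet (mice 7, 24 and 25) and 4491, 4845 and 4784 on the low-calcium diet (mice 8, 9 and 26), 0.36 ± 0.11 (adjusted p = 0.0546). Mki67 was at 73770.0, 62814 and 79215 and 90746, 93048 and 90769, 0.35 ± 0.12 (adjusted p = 0.0868). The 3 low-calcium males were close together for both genes. In a fit of those 2 groups alone, 13 members rose, beside 10.4% of all genes called. The summed level of 9 hepatocyte genes, Alb the most abundant, was 2195, 18136 and 1416 in the 3 control males and 8.77, 2.95 and 5.21 in the low-calcium males, and its part was not tested. Skeletal muscle genes summed to 584, 782 and 602 in these control males and to 136, 218 and 157 in the low-calcium males, and their part was not tested either. In KO males limma called 0 members (4 had an unadjusted p under 0.05), edgeR 0 and DESeq2 0, beside 3.41% of all genes called by limma. Of all 15638 genes, 2803 had an unadjusted p under 0.05 there. The median of the 40 was 0.11. It moved to -0.05 without mouse 29, whose Mki67 was 100365 against 71539 and 83894 in the other KO males on the diet.

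The differences between these diet effects were tested directly. Between WT females and WT males limma called 0 members (30 had an unadjusted p under 0.05), edgeR 0 and DESeq2 0, beside 0.173% of all genes called by limma. Of all 15638 genes, 2163 had an unadjusted p under 0.05 in this comparison. All 40 estimates were negative with a median of -0.37, and Mcm2 had the smallest adjusted p (-0.54 ± 0.15, adjusted p = 0.181). Without mice 16 and 17 the count was 22, beside 8.37% of all genes, and without mouse 17 it was 6, beside 2.12%. Between KO and WT females limma called 0 members (15 had an unadjusted p under 0.05), edgeR 0 and DESeq2 3, beside 0.0128% of all genes called by limma. DESeq2 called 524 of all 15638 genes in this comparison, and 2634 had an unadjusted p under 0.05 in limma. There 38 estimates were positive (median 0.30), and the count was 12 without mouse 17, beside 5.42% of all genes, and 14 without mice 16 and 17, beside 7.08%. Between KO females and KO males, and likewise between KO and WT males, limma called 0 members (0 had an unadjusted p under 0.05), edgeR 0 and DESeq2 0, beside 0% of all genes called by limma.

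**Figure D4:**
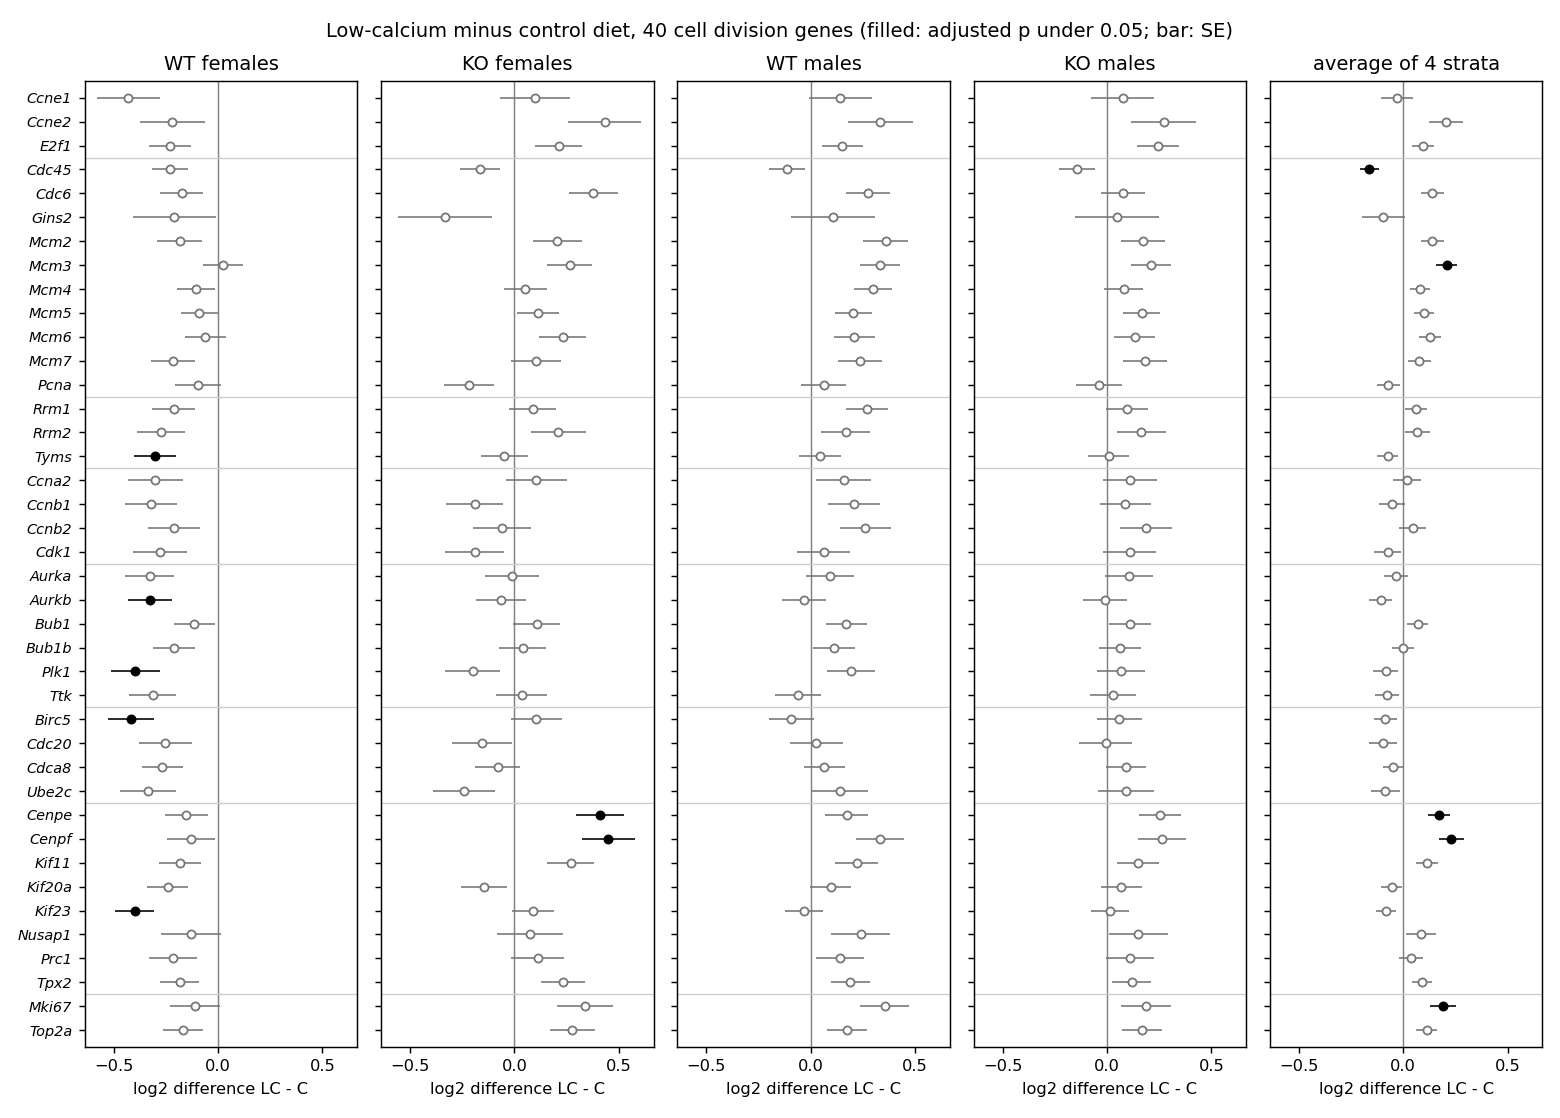
Log2 difference of low-calcium minus control diet with its SE (horizontal axis) for the 40 genes in each group and on average; filled points have an adjusted p under 0.05. Most points lie below 0 in WT females (39 of 40) and above 0 in WT males (35 of 40).

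Loss of FNDC5 gave no limma call among the 40 genes in any stratum. Averaged over the strata, limma called 0 members (0 had an unadjusted p under 0.05), edgeR 0 and DESeq2 0, beside 0.0576% of all genes called by limma. The median was 0.033, and Mki67 differed by -0.01 ± 0.061. On the control diet the medians were -0.07 in females and 0.0016 in males, where limma called 0% and 0.46% of all genes, and in males on the low-calcium diet -0.047, beside 0.00639% of all genes. In each of these 3 strata limma called 0 members (0 had an unadjusted p under 0.05), edgeR 0 and DESeq2 0. In females on the low-calcium diet all 40 estimates were positive, with a median of 0.24. There limma called 0 members (17 had an unadjusted p under 0.05), edgeR 0 and DESeq2 4, beside 1.24% of all genes called by limma. DESeq2 called 6.09% of all genes there, and 3262 of all 15638 genes had an unadjusted p under 0.05 in limma. Birc5 came closest, at 1522, 2003 and 1519.6 in WT and 2398 and 2238 in KO females, 0.47 ± 0.12 (SE; adjusted p = 0.0564). Both KO females were above the 3 WT females, and the genotypes did not overlap, in either direction, for 32.6% of all genes. Without mouse 17, 16 members were called higher in KO females, beside 12.3% of all genes called. With the 3 marrow lists as covariates the median of the 40 was -0.070 and no member was called, beside 0% of all genes. In the same comparison all 11 erythroid genes had positive estimates (median 0.54, none called), and 9 of 11 osteocyte genes had negative ones (median -0.65, none called), and their part in it was not tested.

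Division genes outside the 40 were mostly lower in females as well. Of 27 other replication genes 25 were lower in females on average (median -0.24), among them Uhrf1, which keeps DNA methylation through replication, at -0.28 ± 0.051 (SE; adjusted p = 0.00034). The polymerase alpha gene Pola1 (-0.17 ± 0.045) and the DNA ligase gene Lig1 (-0.25 ± 0.047) were also lower. Of 33 other mitosis genes 30 were lower (median -0.25), including the condensin genes Smc4 (-0.24 ± 0.042) and Smc2 (-0.26 ± 0.051) and the spindle pole gene Aspm (-0.20 ± 0.057). Of 10 genes of G1 cyclins, their kinases and the pocket proteins, 6 were lower and 2 higher. The higher ones, named after their values were seen, were Ccnd1 (0.26 ± 0.065) and Ccnd2 (0.14 ± 0.042). Ccnd3, the gene of cyclin D3, differed by -0.38 ± 0.060 and the pocket protein gene Rb1 by -0.20 ± 0.048.

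The CDK inhibitors, which halt the cycle, were split. Cdkn1a (0.54 ± 0.15, adjusted p = 0.00605) was higher in females. Cdkn1b (-0.13 ± 0.049, adjusted p = 0.0349) and Cdkn2c (-0.24 ± 0.071, adjusted p = 0.0107) were lower. Over the 7 genes of the list 2 were higher and 3 lower, the others being Cdkn1c (0.72 ± 0.13) and Cdkn2d (-0.20 ± 0.075), named after their values were seen. The low-calcium diet raised Cdkn1a on average (0.44 ± 0.15, adjusted p = 0.0259).

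The histone genes of the Hist1h to Hist4h clusters stood apart from the 40 genes under the diet. Most of these genes are transcribed in S phase and their messages end in a stem-loop without a poly(A) tail, which total RNA libraries can capture. On the low-calcium diet 52 of 57 tested histone genes fell on average and none rose, with a median of -0.58, against 4 up and 1 down of the 40 members. Hist1h1c (-0.50 ± 0.12, adjusted p = 0.00288), Hist1h4d (-0.56 ± 0.12, adjusted p = 0.00179) and Hist1h1d (-0.43 ± 0.11, adjusted p = 0.00728) were the most abundant. By sex, 56 of 57 were lower in females (median -0.53), the same direction as the 40 genes. Over the 23 mice the histone mean went with that of the 40 genes at r = 0.68 (rho = 0.55), and at 0.85 within groups. Of the mature neutrophil genes, 8 of 11 fell on the diet as well (median -0.69), as did all 7 T and NK cell genes (-0.68), while 2 of 11 erythroid genes rose. The part of these in the histone difference was not tested. Many histone genes are near-identical, and since only uniquely mapped reads were counted their single values are uncertain.

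**Figure D5:**
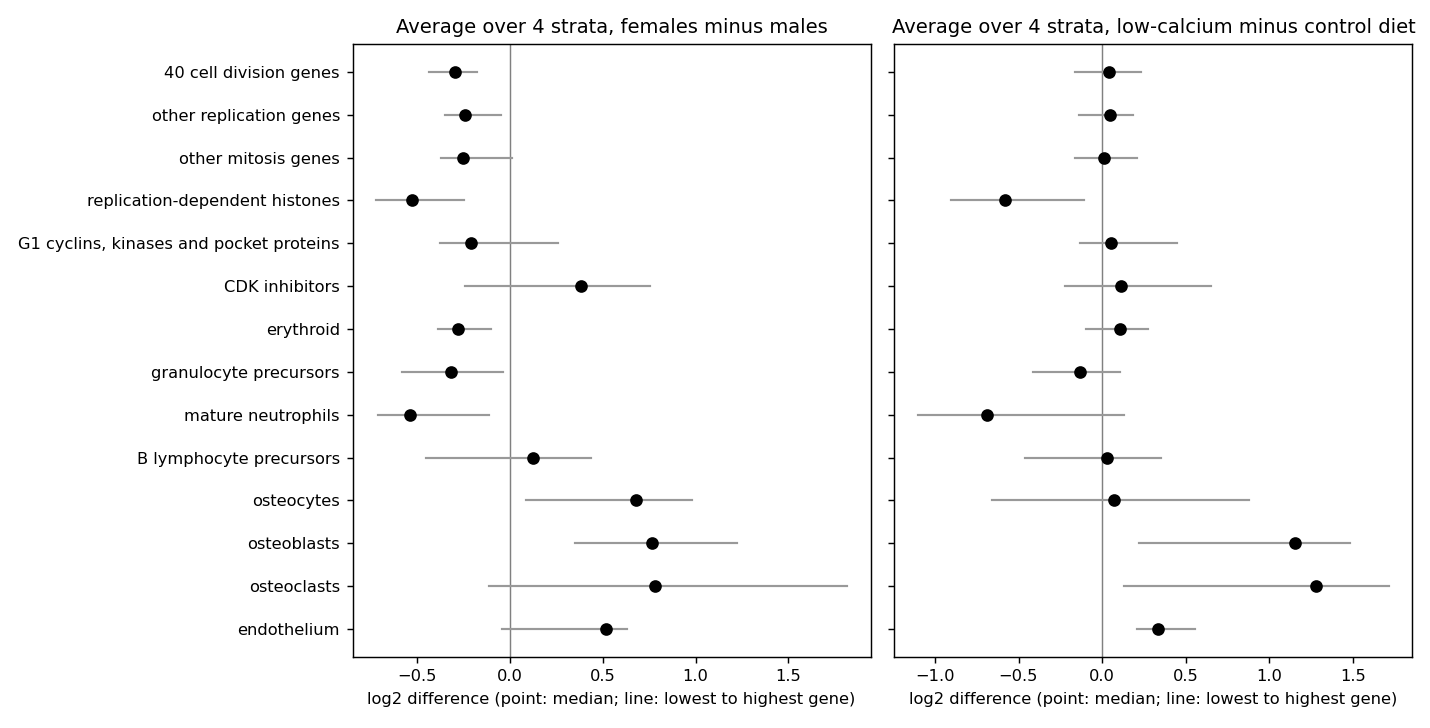
Median (points) and range (lines) of the log2 difference over the genes of each list, females minus males on the left and low-calcium minus control diet on the right, each averaged over 4 strata. The 40 cell division genes sit at -0.30 and 0.041, and the histones at -0.53 and -0.58.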

How the data were processed

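Total RNA was sequenced from bone chips of 23 mice, 1 library each. Per the study's methods, reads were checked with FastQC 0.11.5, aligned to mm10 with STAR 2.7.10a and counted per gene with featureCounts, which used strand and uniquely mapped reads. All samples passed a minimum RNA integrity, and 1 KO female on the control diet was left out by the authors. The deposited values are a normalized count signal, that is, read counts divided by DESeq2 size factors by the authors. Whole reads were recovered from them for 100% of values within 0.01 reads, and served for library depth and for the count tests. Depth limits precision most for WT females on the low-calcium diet, and intervals on single counts were not needed for genes at these levels.

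Groups came from the sample titles, with the mouse as the replicate. The 40 genes, the other lists and the tests were chosen with earlier results of these data known. Genes with at least 10 normalized counts in at least 2 libraries (15638 of 21402) were tested with limma 3.58.1 (trend) in R 4.3.3 on log2(normalized count + 1), in 1 fit of 8 group means over all mice, for 12 comparisons of 2 groups, 3 averages over strata and 4 differences between diet effects. Fold changes on that scale slightly understate those of low genes. P-values for a change in either direction were adjusted by Benjamini-Hochberg over all tested genes of a comparison, and 0.05 was the threshold. The fit was tested on simulated data before use. Named genes were Mki67, Top2a, Cdk1, Ccnb1, Aurkb, Mcm2, Mcm5, Pcna, Rrm2 and E2f1, up to 4 called members with the smallest adjusted p per comparison and direction, the highest and lowest per length, up to 3 most abundant genes of each other list, and Fndc5. Members outside that rule are named only as ends of a range, as exceptions or in a count, after their values were seen. A few list genes are not reported here by name.

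The results were recomputed with edgeR 4.0.16 (quasi-likelihood, TMM) and DESeq2 1.42.0 on recovered reads, with quantile-normalized values, a pseudocount of 5 or all genes unfiltered, with the study's thresholds in DESeq2 (unadjusted p under 0.01 and a log2 fold change past 1), fits of 2 groups alone, marrow lists as 3 covariates, and with each mouse left out in turn. Exon lengths came from GENCODE M21 and promoters from RefSeq (GRCm38.p6). Figures were drawn with matplotlib 3.10.9 in Python 3.11.15.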

Additional observations from a re-analysis of the deposited data

How the results depend on the processing

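Counts of called members are given here for settings that moved them by over 1.5 times. A count without a share of all genes beside it shows only that it moved. It does not show how the members compare with other genes. The lower levels in females on average (39 members) and in WT mice on the low-calcium diet (40) stayed at 38 to 40 with any mouse left out, and were called in all settings but those named here. With the 3 marrow lists as covariates both counts were 0, beside 0.914% of all genes on average and 0.121% in that stratum. Of the members checked singly, Cdk1 (0.080 in WT mice on the low-calcium diet, adjusted p = 0.791, and 0.039 on average, adjusted p = 0.741) and Pcna (0.026 in that stratum, adjusted p = 0.946) changed sign in limma. Other members, named after their values were seen, turned positive on average too. They were Gins2 (0.21), Mcm7 (0.063), Cenpf (0.041), Cdc20 (0.039), Bub1b (0.017), Ccnb2 (0.0020) and Cenpe (0.00088), and the rest stayed negative. With those covariates the diet count was 2 in WT females (both higher, beside 7.53% of all genes) and 8 in WT males (7 higher and 1 lower, beside 12.5%). It was 0 in KO females (beside 0.371%) and 3 in KO males (2 higher and 1 lower, beside 11.9%). On average it was 15 (13 higher and 2 lower, beside 31.4%). The sex count was 0 in KO mice on the control diet and 1 on the low-calcium diet. Without the filter the diet count was 3 in WT females and 0 in KO females, beside 9.99% and 4% of all genes. The sex count in KO mice was then 0 on the control diet and 1 on the low-calcium diet. Quantile normalization gave 15 for the diet in WT females and 2 for KO against WT females on the low-calcium diet, beside 18.3% and 1.85% of all genes. It gave 0 for the sexes in KO mice on either diet, and 3 for the average diet effect, whose median went from 0.041 to -0.0028. DESeq2 gave 8, 4 and 4 for the diet in WT females, WT males and KO females, beside 19.2%, 9.16% and 11.9% of all genes. It gave 9 for the average diet effect and 4 for KO against WT females on the low-calcium diet, beside 5335 and 952 genes. For the sexes it gave 1 in WT mice on the control diet, beside 704 genes. In KO mice on the control and low-calcium diets it gave 6 and 7, beside 1356 and 1120 genes. For the diet effect of KO against WT females it gave 3, beside 524 genes. Fits of 2 groups alone gave 0, 13 and 0 for the diet in WT females, WT males and KO females, beside 5.19%, 10.4% and 0.512% of all genes. For the sexes they gave 1 in WT and 1 in KO mice on the control diet and 0 in KO mice on the low-calcium diet. A pseudocount of 5 and edgeR each gave 1 for the diet in WT males, beside 5.2% and 6.11% of all genes. For the sexes in KO mice on the control diet edgeR gave 0. The study's thresholds gave 0 in each comparison of 2 groups, and few genes of any kind passed them. For the diet they called 4.02%, 2.79%, 1.75% and 2.48% of all genes in WT females, WT males, KO females and KO males. For KO against WT females on the control diet the share was 0.326%.

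Without mice 16 and 17 the count was 22 for the diet in WT females, 16 for KO against WT females on the low-calcium diet, and 14 and 22 for the differences of diet effects between KO and WT females and between WT females and males. The lone mouse 18, with the lowest value of the 23 for 33 members, is then assumed to vary like the other groups. Leaving out 1 mouse gave 1 to 25 for the diet in WT females, 0 to 1 in WT males, 0 to 2 in KO females and 4 to 11 on average. It gave 0 to 3 and 0 to 6 for the sexes in KO mice on the control and low-calcium diets, 0 to 16 for KO against WT females on the low-calcium diet, and 0 to 12 and 0 to 6 for the same differences of diet effects. Chosen after seeing the data, the erythroid list as a covariate gave 0 for the sexes in WT mice on the low-calcium diet and 25 on average. All genes called in these fits were 0.863% and 21.2%. The osteocyte and osteoblast lists, also chosen so, gave 0 and 0, beside 0.032% and 0.147%. In the same way, the control-diet strata alone gave 8 for the average sex difference, and the strata without WT females gave 13 for the average diet effect. Why these counts moved was not tested. No paired analysis was possible because each replicate number belongs to 1 mouse and no number is shared between groups.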

Other observations

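On the low-calcium diet, few division genes outside the 40 were called. In the average over 4 strata 5 of 27 other replication genes rose and none fell in limma, and 3 of 33 other mitosis genes rose and 1 fell, beside 16% of all genes called higher and 15.4% lower. The genes were named after their values were seen. The replication genes were the origin recognition gene Orc1 (0.15 ± 0.046, SE), the licensing gene Cdt1 (0.18 ± 0.055), Pola1 (0.18 ± 0.045), Uhrf1 (0.16 ± 0.051) and the checkpoint mediator Clspn (0.16 ± 0.044). Of the mitosis genes, the condensin genes Smc2 (0.21 ± 0.051), Smc4 (0.15 ± 0.042) and Ncapd2 (0.15 ± 0.049) rose, and Cenpa, the centromeric histone, fell (-0.16 ± 0.054). The D cyclin genes Ccnd1 (0.45 ± 0.065, adjusted p = 4.5e-05) and Ccnd2 (0.27 ± 0.042, adjusted p = 7.5e-05) and their kinase gene Cdk6 (0.15 ± 0.048) rose, while the inhibitor gene Cdkn2d fell (-0.22 ± 0.075).

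Hepatocyte genes had summed levels of 2195, 18136 and 1416 normalized counts in the 3 WT males on the control diet, and of 0 to 222 in the other 20 mice. Skeletal muscle genes were highest in the same 3 males, at 584, 782 and 602, against 131 to 248 in the other 20 mice. The 40 cell division genes had no call between these males and KO males on the same diet (median 0.0016).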
